A study of Schizosaccharomyces pombe with 4 samples.

Results

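The genes described here encode proteins of mRNA decay in fission yeast, Schizosaccharomyces pombe, and they include upf1 itself, the gene of the protein that was precipitated. There are 10 of them among the 4888 genes for which a value was given. They were picked by gene identifier for the known roles of their products, not by their measured values, and all 10 were present in the data. By role they are upf1 (SPAC16C9.06c) and upf2 (SPAC19A8.08) of nonsense-mediated decay, dcp1 (SPBC3B9.21) and dcp2 (SPAC19A8.12) of decapping, and exo2 (SPAC17A5.14) and dhp1 (SPAC26A3.12c) of 5′ to 3′ degradation. The others are dis3 (SPBC26H8.10), rrp6 (SPAC1F3.01) and ski2 (SPCC550.03c) of 3′ to 5′ degradation, and pab1 (SPAC57A7.04c), which encodes a poly(A)-binding protein.

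Most eukaryotic mRNAs are degraded after their poly(A) tail is shortened, either from the 5′ end once the cap is removed or from the 3′ end by the exosome. Nonsense-mediated decay is a branch of this system that removes transcripts whose translation stops too early. Its core factors are the RNA helicase Upf1 and its partners Upf2 and Upf3, and Upf1 is also known to associate with transcribed genes in the nucleus.

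The study located Upf1 on chromatin by chromatin immunoprecipitation hybridised to tiling arrays (ChIP-chip), which measures the DNA that comes down with the protein. Upf1 carried a C-terminal HA tag at its own locus, and 1 immunoprecipitated (IP) array of an asynchronous culture and 1 of a culture in S phase were used, with 2 arrays of input DNA from untreated cells. The S-phase culture was blocked in G2 through the temperature-sensitive cdc25-22 allele for 3.5 h at 37 °C and fixed 60 min after it was returned to 25 °C. The strain list does not assign strains to cultures. Its only cdc25-22 strain, taken here as that of the S-phase culture, carries cdc25-22 and upf1-3HA::kanMX6 with auxotrophic markers. The strain of the asynchronous culture was not given in the sources used here. For each culture 2 IP arrays were made, and the authors kept the better one. The titles put the S-phase array on another occasion than the asynchronous one and one of the inputs. No S-phase input and no IP from cells without the tag was used here.

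The values are IP over input ratios per gene, converted here to log2 and centred so that the median gene of each culture lies at 0. A positive value therefore means more Upf1 signal than at the median gene, and a percentile gives the place of a gene among all 4888. As deposited, the median ratio was 0.774 in asynchronous cells and 0.195 in S phase, a 3.97-fold gap between columns that the centring removes, so only differences among genes can be compared between cultures. With 1 array per culture there was no replicate error and no test. In its place, the SD of the difference between the cultures over all genes (0.35), divided by the square root of 2, gave 0.24 on the log2 scale, or 1.19-fold, as the spread of one array. That figure also holds whatever true differences there were between the cultures. It leaves out the error of the shared inputs, which cancels in the difference. Set beside a distance between genes or from a predicted value, it therefore omits an error that was not measured. A gap between genes also carries the error of both. A gene is said to pass the threshold where it lay at least 1.5-fold from the median gene (0.58 on the log2 scale), which marks size and not significance. Of the 9 histone genes, whose transcription is known to rise in S phase, 8 had a higher centred value in the S-phase culture, and hta2 went from 0.52 to 1.16. All 9 lay above the median gene in both cultures. The S-phase ratios were more widely spread over genes, which alone raises centred values of such genes. The histone values were not rescaled for this.

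Upf1 association with the mRNA decay genes was mostly close to that of the median gene, and pab1 and dis3 stood above the others. In the asynchronous culture the 10 genes ranged from -0.36 at dcp1 to 0.82 at pab1, with a median of -0.031, and 4 lay above 0. Past the threshold were 2 of the 10, pab1 and dis3, and none lay 1.5-fold below the median gene. Over all genes 5.14% were past the threshold above the median and 3.36% below it. In S phase the range was from -0.46 at upf2 to 1.16 at pab1, with a median of 0.097 and 6 genes above 0. Only pab1 passed the threshold, against 11.2% of all genes above the median and 7.96% below it. A count over so few genes rests on single genes, and nothing is read from its distance to these shares.

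**Figure D1:**
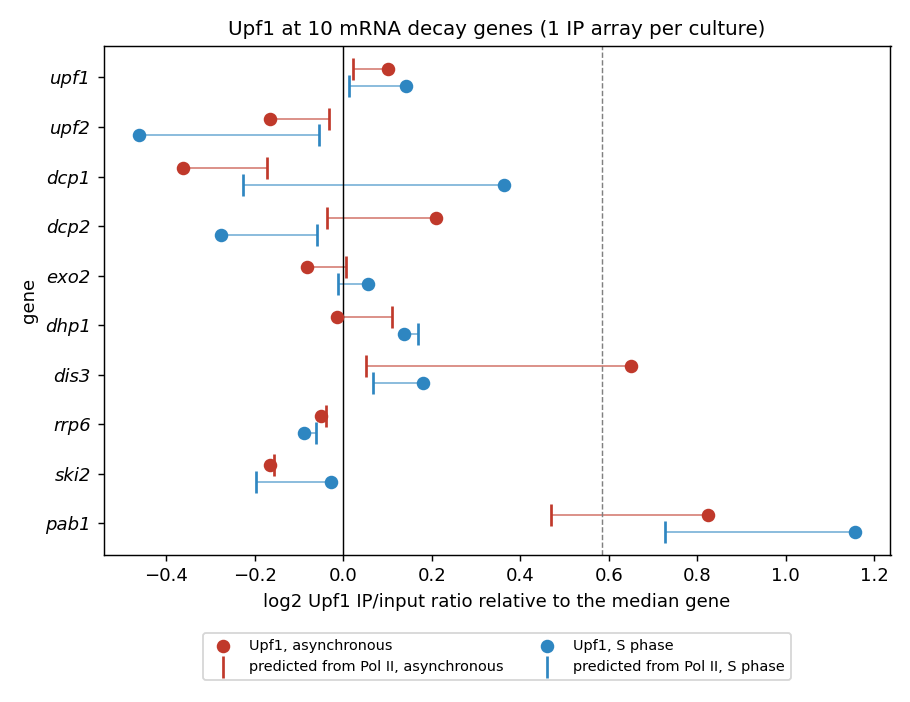
Upf1 association of the 10 mRNA decay genes in the asynchronous and the S-phase culture, as log2 of the IP over input ratio with the median gene at 0 (1 array per culture). Dots are the measured values, ticks the values predicted from the Pol II ratio, and the dashed line marks 1.5-fold above the median gene. The gene pab1 lies above the line in both cultures and dis3 only in the asynchronous one.

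At upf1, whose product is the RNA helicase of nonsense-mediated decay, the deposited ratio was 0.831 in asynchronous cells and 0.215 in S phase. Centred, these were 0.10 and 0.14, at percentiles of 63.2 and 63.5. Upf1 was therefore slightly above the median gene at its own gene in both cultures, by less than the spread of one array. The ratio of RNA polymerase II (Pol II, phosphorylated on Ser5 of its C-terminal repeats), which the authors calculated from published arrays of other cultures, was 0.601 at upf1, or 0.14 after centring, at a percentile of 60.1. Its RNA level, the authors' mean of published libraries, was 56.6 FPKM (fragments per kilobase, scaled to sequencing depth), at a percentile of 62.8. In Upf1, Pol II and RNA upf1 thus held nearly the same place among genes. The HA tag and its marker lie at the 3′ end of this gene in the strain, and the array does not separate signal at upf1 from signal at the antisense RNA SPNCRNA.2353, which covers 92% of it.

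The genes around upf1 were also close to the median gene. On its 3′ side, cph1 had 0.088 in asynchronous cells and 0.045 in S phase, and the next gene, mot2, which encodes a subunit of the Ccr4-Not deadenylase complex, had -0.12 and 0.017. On its 5′ side, pom2 had -0.077 and -0.034, and urb2 had -0.36 and -0.50. Of these 4 genes only urb2 differed from upf1 by more than the spread of one array. By Euclidean distance over 4 values (Upf1 in both cultures, Pol II and RNA level) the genes most like upf1 were SPBC713.09 (0.061), psd1 (0.083) and trm732 (0.086). The Upf1 values of these 3 genes lay between 0.058 and 0.12 in asynchronous cells and between 0.15 and 0.19 in S phase.

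At upf2, which encodes the partner that binds Upf1, the deposited ratios were 0.69 in asynchronous cells and 0.142 in S phase. The centred values of -0.17 and -0.46, at percentiles of 28 and 12.8, were both below the median gene. In S phase upf2 was the lowest of the 10 genes. Its Pol II ratio of 0.537 was near the median gene (-0.025 centred), as was its RNA level of 42.9 FPKM. The genes of both partners thus differed by 0.27 in asynchronous cells and by 0.60 in S phase, with upf1 the higher.

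The decapping enzyme is Dcp2, and Dcp1 is the subunit that activates it. At dcp1 the deposited ratio was 0.602 in asynchronous cells and 0.251 in S phase. The centred values were -0.36, the lowest of the 10 genes, and 0.36, the highest after pab1, at percentiles of 10.8 and 79.6. At dcp2 the deposited ratios were 0.895 and 0.161. The centred values ran the other way, from 0.21 to -0.28, at percentiles of 75 and 24. The genes of both subunits therefore lay on opposite sides of each other in the cultures. Their Pol II ratios were 0.399 at dcp1, which is low (-0.45, percentile 17.8), and 0.532 at dcp2 (-0.04). The RNA levels were 30.6 FPKM for dcp1, the lowest of the 10, and 39.2 FPKM for dcp2.

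Exo2 is the cytoplasmic 5′ to 3′ exonuclease (Xrn1 in other eukaryotes) and Dhp1 the nuclear one (Xrn2, Rat1 in budding yeast), which also acts in transcription termination. At exo2 the deposited ratios were 0.732 in asynchronous cells and 0.203 in S phase, and the centred values were -0.081 and 0.056. At dhp1 they were 0.767 and 0.214, with centred values of -0.013 and 0.14. All 4 centred values lay within the spread of one array of the median gene. The Pol II ratio was 0.58 at exo2 (0.085 centred) and 0.709 at dhp1 (0.38, percentile 75.1), and the RNA levels were 68.6 and 58.4 FPKM.

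In the 3′ to 5′ group dis3 stood apart from rrp6 and ski2 in the asynchronous culture. Dis3 is the catalytic subunit of the exosome, and at dis3 the deposited ratio was 1.22 in asynchronous cells and 0.221 in S phase. The centred value was 0.65 (1.57-fold, percentile 96) in asynchronous cells and 0.18 (percentile 66.9) in S phase. At rrp6, the gene of another exonuclease of the nuclear exosome, the deposited ratios of 0.748 and 0.183 gave centred values of -0.049 and -0.088. At ski2, which encodes the helicase that feeds mRNA to the cytoplasmic exosome, ratios of 0.691 and 0.191 gave -0.17 and -0.028. Of the 3 genes only dis3, and only in the asynchronous culture, was further from the median gene than the spread of one array. The RNA levels of dis3 (89.4 FPKM) and rrp6 (89.8 FPKM) were nearly equal, and that of ski2 was 36.6 FPKM. The Pol II ratios were 0.639 at dis3 (0.22 centred), 0.53 at rrp6 (-0.044) and 0.421 at ski2 (-0.38).

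The gene of the poly(A)-binding protein, pab1 (pabp in RefSeq), had the highest Upf1 value in both cultures. The deposited ratio was 1.37 in asynchronous cells and 0.434 in S phase, and the centred values were 0.82 (1.77-fold, percentile 98.4) and 1.16 (2.23-fold, percentile 98.6). It also had the highest Pol II ratio of the 10, 1.38 (1.33 centred, 2.52-fold, percentile 96.1), and the highest RNA level, 182 FPKM. The genes most like it over the 4 values were erg25 (distance 0.15), fil1 (0.20) and knh4 (0.21), with Upf1 values between 0.77 and 0.99 in asynchronous cells and between 1.12 and 1.27 in S phase. The GC content of pab1 was 45.2%, at a percentile of 98.6, and when the trend with GC content over all genes was removed its values were 0.31 and 0.46, under the threshold in both cultures. The value of dis3 (GC content 38.5%) was 0.54 in the asynchronous culture after that removal, also under the threshold.

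Ordered by Upf1 in the asynchronous culture, the genes ran pab1, dis3, dcp2, upf1, dhp1, rrp6, exo2, ski2, upf2 and dcp1, with ski2 and upf2 equal after rounding (-0.17). The only step between neighbours above the spread of one array was that from dis3 to dcp2 (0.44). In S phase the order was pab1, dcp1, dis3, upf1, dhp1, exo2, ski2, rrp6, dcp2 and upf2, and the only such step was from pab1 to dcp1 (0.79). All other neighbours in each order, such as upf1 and dhp1, differed by less than that spread.

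Whether Upf1 at these genes differed from that at other genes of the same Pol II ratio was addressed with a smooth curve (lowess) of Upf1 on Pol II over all 4888 genes. The distance of a gene from this curve is given as its residual, and the SD of the residuals over all genes was 0.28 in asynchronous cells and 0.38 in S phase. The residuals of the 10 genes had medians of -0.0099 in asynchronous cells and 0.09 in S phase, and 4 and 6 of them lay above 0. One gene passed the threshold in each culture, dis3 in the asynchronous and dcp1 in the S-phase culture. Over all genes 2.74% and 4.66% had such a residual above the curve, and 1.88% and 5.63% had one below it, where none of the 10 lay.

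For upf1 the curve predicted 0.021 in asynchronous cells and 0.013 in S phase. The residuals were 0.08 and 0.13, at percentiles of 64.8 and 67.3, so Upf1 at its own gene was within the spread of one array of what its Pol II ratio predicted. In a linear model on Pol II, GC content and gene length these residuals were -0.0063 and -0.0014. For upf2 the residuals were -0.13 and -0.41, the latter at a percentile of 11.4. The residual of dis3 was 0.60 (1.52-fold, percentile 97.5) in asynchronous cells and 0.11 in S phase, and that of dcp1 was -0.19 in asynchronous cells and 0.59 (1.51-fold, percentile 95.5) in S phase. Both passed the threshold by a narrow margin. With a prediction from Pol II and RNA level both were under it (0.57 for dis3 and 0.54 for dcp1), and with Pol II, GC content and gene length dis3 was under it (0.53) while dcp1 was further above it (0.89). From the Pol II ratio of pab1 values of 0.47 and 0.73 were predicted, and its residuals were 0.35 (percentile 91.6) and 0.43 (percentile 90.7). Both residuals were under the threshold and above the spread of one array. At dcp2 the residuals were 0.25 and -0.22, and at dhp1 they were -0.12 and -0.032. The residuals of exo2 were -0.087 and 0.068, those of rrp6 were -0.01 and -0.027, and those of ski2 were -0.0096 and 0.17. Pol II was not measured in S phase, so the S-phase residuals set Upf1 in S phase against Pol II of other cultures.

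**Figure D2:**
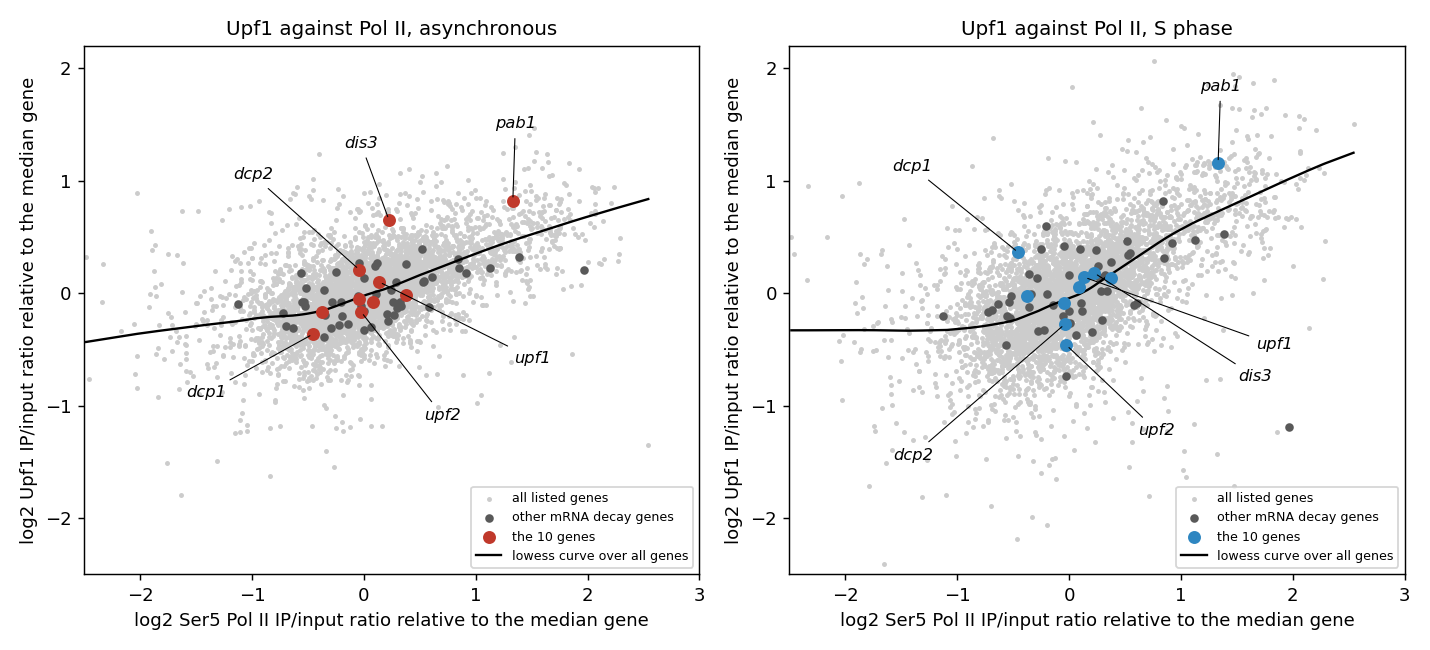
Upf1 against Pol II in the asynchronous and the S-phase culture, both as log2 of the IP over input ratio with the median gene at 0, with the lowess curve. All listed genes are light grey, the other mRNA decay genes dark grey and the 10 mRNA decay genes coloured, some of them named. The axes leave out 9 genes. At the upper right pab1 lies above the curve in both cultures, by less than 1.5-fold. Further above it lie dis3 in asynchronous cells and dcp1 in S phase.

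Across the 10 genes Upf1 in asynchronous cells and Upf1 in S phase had a Spearman rho of 0.345, against 0.694 over all genes, and without pab1 it was 0.1 (n = 9). Upf1 and Pol II had a rho of 0.733 in asynchronous cells and 0.406 in S phase, against 0.559 and 0.579 over all genes, and without pab1 these were 0.633 and 0.183. With the RNA level rho was 0.636 and 0.261. These are descriptions over genes on the same arrays, and the Upf1 ratios of both cultures share their inputs. A rank correlation over 10 genes moves with a single gene, as the values without pab1 show.

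Between the cultures, dcp1 was the gene whose Upf1 value differed most. Its centred value was higher in S phase by 0.72 (1.64-fold), at a percentile of 97.7 of all differences, and it was the only one of the 10 past 1.5-fold in either direction. Over all genes 3.78% were past 1.5-fold higher and 4.03% lower. The lowest differences were those of dcp2 (-0.49, percentile 5.81) and dis3 (-0.48, 0.718-fold, percentile 6.26), and dcp1, dcp2 and dis3 were the only members whose difference was larger than the SD over genes, 0.35. The value of upf2 differed by -0.30 and that of pab1 by 0.32, and for the latter the difference was -0.0057 when the wider S-phase ratios (SD 0.48 over genes against 0.34) were scaled to the asynchronous spread. The value of upf1 differed by 0.034, and the differences of exo2 (0.13), dhp1 (0.14), rrp6 (-0.047) and ski2 (0.13) were likewise under the spread of one array. The median of the 10 differences was 0.082. The culture, the arrest at 37 °C, any difference of strain and the occasion of the experiment cannot be told apart in these differences.

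Short genes had more variable differences, so each gene was also set among the 489 genes nearest to it in length. With 951 bp dcp1 is the shortest of the 10 genes, and at its length the spread of one array was 0.28. Its difference lay at a percentile of 96.3 there. The lengths of dcp2 (2846 bp), dis3 (3250 bp) and upf2 (3486 bp) go with smaller spreads of 0.20, 0.18 and 0.18, and their differences lay at percentiles of 2.86, 2.86 and 9.82. The GC content of dcp1 was 30.2%, at a percentile of 0.495 of all genes. With the GC trend removed its value was 0.14 in asynchronous cells and 0.90 in S phase, so that it was no longer below the median gene in the former.

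**Figure D3:**
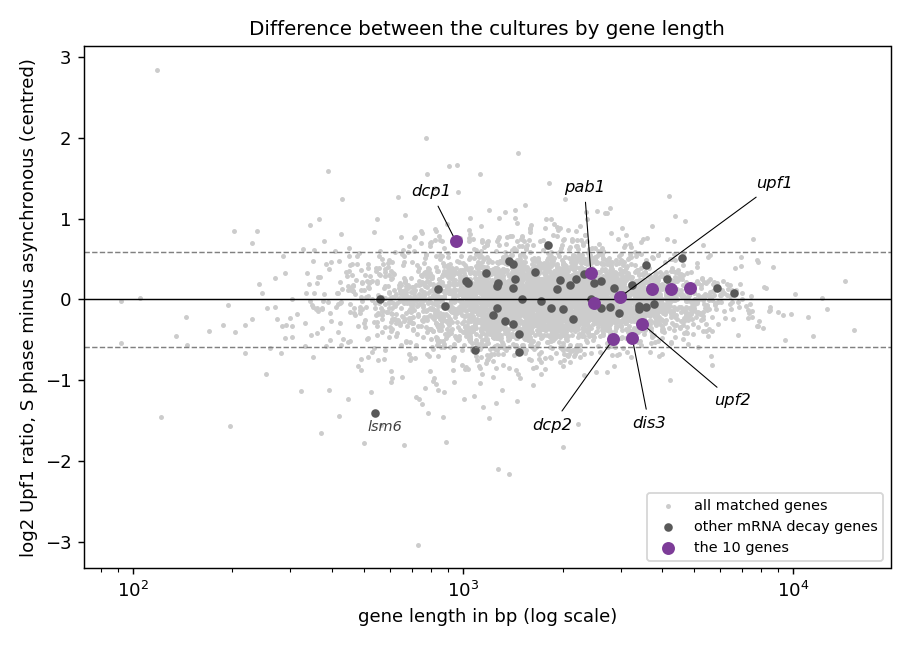
Difference of the centred log2 Upf1 ratio between the S-phase and the asynchronous culture against gene length in bp (log axis). All genes with a known length are light grey, the other mRNA decay genes dark grey and the 10 mRNA decay genes coloured. Differences spread more widely among short genes; dcp1 lies above 0.58, and dcp2 (-0.49) and dis3 (-0.48) lie lowest of the 10.

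The listed genes beside dcp1, dcp2 and dis3 were examined because ChIP fragments can carry signal from one gene into the next. Over all 4841 pairs of adjacent genes rho was 0.249 for the asynchronous Upf1 value, 0.188 for S phase and 0.166 for the difference. Beside dis3, the4, which overlaps 4% of it, had 0.76 in asynchronous cells and 0.40 in S phase. The next gene, cyc3, had 0.50 and 0.34, and the non-coding gene rse1 had 0.48 and 0.049. Their asynchronous residuals were 0.61, 0.51 and 0.65, beside 0.60 at dis3, while snf59 on the other side of dis3 had -0.68 and -0.70. The high asynchronous value of dis3 was thus shared by the run of genes on one side of it. At dcp2 the nearer genes on one side went the same way, since irc6 had 0.26 and -0.29 and rfp1 0.099 and -0.27. The next gene on that side, yos1, did not, with -0.39 and -0.42, and usp101 on the other side had 0.20 and 0.46. The genes dcp2 and upf2 lie near each other, with irc6, rfp1 and yos1 between them.

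The genes beside dcp1 did not share its difference. Its neighbour oms1, which overlaps 8% of dcp1 on the same strand, had -0.68 in asynchronous cells and -0.72 in S phase, and hot15 had -0.30 and -0.71. Both lay below the median gene in S phase, where dcp1 lay above it. An antisense RNA, SPNCRNA.6385, covers 89% of dcp1, and ChIP DNA does not tell strands apart. Beside pab1, SPAC57A7.05 had 0.30 and 0.42 and SPAC57A7.15c had -0.098 and 0.46, all below pab1. Next to ski2, gpi2 differed between the cultures by 0.87 (from -0.19 to 0.69), while ski2 itself differed by 0.13. The 20 genes next to the 10 had medians of -0.052 in asynchronous cells and 0.084 in S phase.

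**Figure D4:**
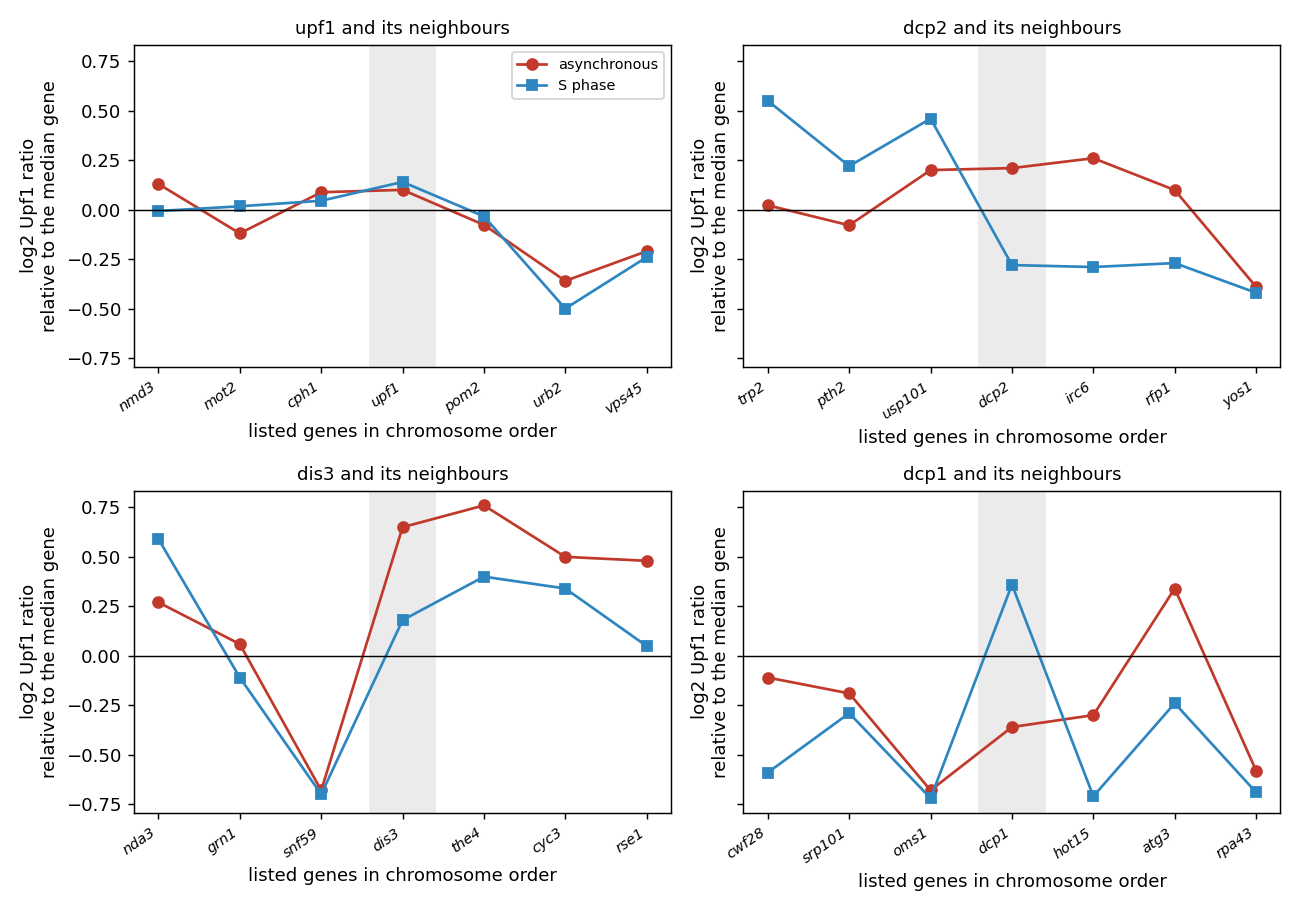
Centred log2 Upf1 ratio of upf1, dcp2, dis3 and dcp1 and of the 3 listed genes on each side, in gene order, in the asynchronous and the S-phase culture (1 array each). The genes to the right of dis3 share its high asynchronous value, and those beside dcp1 lie below it in S phase.

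In properties that played no part in the choice, the 10 genes were long, with a median of 3122 bp (951 to 4860 bp) against 1804 bp over all genes. Their median GC content was 37.8% against 36.8%, and their median RNA level 57.5 FPKM (30.6 to 182) against 41 FPKM. By the RefSeq annotation 9 of the 10 overlap another gene, all but dcp2, and for 3 of them (dcp1, dhp1 and dis3) a protein-coding gene is among these. The share of overlapping genes over all genes was not computed, so this count is not read as a trait of the 10. The overlap of dhp1 is with SPAC26A3.11 over 25% of its length and with cnt6 over 3%. Signal at shared sequence cannot be assigned to one gene, and the probes behind each value are not known here.

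A list of 50 other genes of mRNA decay, termination and deadenylation gives the setting of the 10, and all 50 were measured. Their medians were -0.076 in asynchronous cells and -0.019 in S phase, with residuals of -0.07 and 0.052. In the asynchronous culture 0 of the 50 passed the threshold in either direction (all genes 5.14% above and 3.36% below). In S phase, where 11.2% of all genes lay above it and 7.96% below, 2 of the 50 lay above it, zfs1 (0.82), which encodes a zinc-finger protein that binds AU-rich mRNA, and rcd1 (0.60), of the Ccr4-Not complex. There 2 lay below it, lsm6 (-1.19), of the Lsm ring that promotes decapping, and rrp40 (-0.73), of the exosome cap. None of the 50 asynchronous residuals passed (all genes 2.74% above and 1.88% below). Of those in S phase rcd1 (0.73) lay above and lsm6 (-2.21) and rrp40 (-0.68) below, against 4.66% and 5.63% of all genes. The gene lsm6 has only 541 bp, where the spread of one array was 0.34, and its Pol II value was 1.97.

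By pathway, the other genes of nonsense-mediated decay and termination (upf3, ebs1, sup35 and sup45, annotated as erf1) had a median of 0.10 in asynchronous cells and 0.35 in S phase, and all 4 lay above the median gene in S phase. Their residuals from Pol II had medians of -0.12 and 0.057. At upf3 the deposited ratios were 0.677 in the asynchronous culture, under the column median of 0.774, and 0.216 in S phase, above that of 0.195. The 16 exosome core and cofactor genes had medians of -0.077 and -0.097 and ranged from -0.31 to 0.40 in the asynchronous culture, so that none reached the 0.65 of dis3. The 13 decapping genes had medians of -0.0055 and -0.099, the 4 genes of the Ski complex and no-go decay -0.12 and -0.046, and the 11 of deadenylation and poly(A) binding 0.13 and 0.16. The 2 genes of uridylation and 3′ decay had medians of -0.16 and -0.11.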

How the data were processed

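The 2 Upf1 IP arrays and the 2 inputs were hybridised on tiling arrays. The authors summarised probes into 1 signal per gene, scaled both inputs to a common median and averaged them, and divided each IP signal by that mean, and these ratios were used as deposited. The deposited Pol II ratio came from published arrays and their inputs, summarised likewise, and the RNA column holds the natural log of the authors' mean FPKM plus 1 (natural base settled from the values). No error accompanies these columns. All per-sample columns were mapped to a sample (0 were not).

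Ratios were converted to log2 and centred on the median of 4888 genes with pandas 2.3.3 and numpy 2.4.6 under Python 3.11.15. Residuals came from a lowess curve (statsmodels 0.14.6, span 0.3, 3 robustness iterations), which was tested on simulated data, and figures were drawn with matplotlib 3.10.9. Lengths, GC content, overlaps and gene order came from the RefSeq annotation of S. pombe, to which 4844 genes (99.1%) were matched, sup45 through its synonym. The methods name a genome build for the sequencing reads, but the build behind the gene values of the arrays was not given in the sources used here, so no coordinates or sequences are printed.

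The small number of arrays limits the precision, and no test was possible. The members and the list of other decay genes were chosen with earlier results of these data known. All 10 members are named. Of the other decay genes those past 1.5-fold in either culture are named, with 2 genes on each side of upf1 and the 3 genes nearest in 4 values to upf1 and to each member past the threshold. The members of the termination list, the further neighbours and the genes between dcp2 and upf2 were named after their values were seen. Alternatives changed the centring, the GC content, the genes of the reference, the predictor, the spread of the S-phase ratios and the threshold.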

Additional observations from a re-analysis of the deposited data

Results flagged for a closer look

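Some genes were above the median gene in one culture and below it in the other, and these differences were not tested, since each culture had 1 array. This held for 4 of the 10 genes (all genes 23.3%) and for 14 of the 50 other decay genes (28%), and it is met easily by genes near the median.

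At dcp1 the difference of S phase over asynchronous was 0.72, from -0.36 to 0.36, and at dcp2 it was -0.49, from 0.21 to -0.28. At exo2 it was 0.13, from -0.081 to 0.056, and at dhp1 it was 0.14, from -0.013 to 0.14, both less than the spread of one array. Of the other decay genes that are named, lsm6 differed by -1.41, from 0.21 to -1.19, and rcd1 by 0.67, from -0.081 to 0.60.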

How the results depend on the processing

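No member value past the threshold in the main setting changed its sign under an alternative. Values nearer the median gene did. In asynchronous cells dcp1 went from -0.36 to 0.14 with the GC trend removed. The asynchronous median of the members went from -0.031 to 0.16 when centred on genes low in Pol II. Of the counts and medians over lists, 88 alternative values stayed close to the main one and 32 moved, and of the values of single members 271 stayed and 19 moved. No paired analysis was possible because each culture had 1 IP array, and for the same reason no array was left out. Counts are of genes 1.5-fold above the median gene or the curve, and for the difference between cultures of genes past 1.5-fold in either direction. Shares over all genes were obtained only for the main setting and for the other thresholds. Nothing is read from the counts under the other alternatives.

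Centring on the 25% of genes lowest in Pol II raised all genes by 0.19 in asynchronous cells and 0.26 in S phase. In S phase 2 of the 10 members were then past the threshold (with dcp1, 0.62), and their median was 0.35. For the other decay genes the S-phase count was 12 of 50 and the median 0.24, with a count of 1 in the asynchronous culture. All genes rose by the same amount, so the shares over all genes in the main setting do not apply to these counts. With the GC trend removed 0 members passed in the asynchronous culture, while in S phase dcp1 (0.90) passed in place of pab1.

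The asynchronous residual count was 0 with Pol II, GC content and length (dis3 0.53), with Pol II and RNA level, or with protein-coding genes without a protein-coding overlap as the reference, and 2 with RNA level alone, where pab1 had 0.66. The S-phase residual count was 0 when the 20% of genes lowest in RNA were left out, with the protein-coding reference, or with the S-phase ratios scaled to the asynchronous spread (dcp1 0.42). It stayed at 1 with a straight line, with Pol II and RNA level, or with RNA level alone, but the gene was then pab1 (0.61, 0.62 and 0.86) and not dcp1 (0.55, 0.54 and 0.44). With the 200 genes nearest in Pol II (0.60) or with Pol II, GC content and length (0.89) it was also 1, and the gene was dcp1.

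For the other decay genes the S-phase count was 1 without the genes of lowest RNA level, with the protein-coding reference or with scaling. Their S-phase residual count was 2 with Pol II, GC content and length and 0 with scaling.

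A 2-fold threshold left 0 members in the asynchronous culture, in the difference and in both residuals, and 0 other decay genes in S phase and in its residual. At a lower threshold of 0.32 on the log2 scale the members counted 2 of 10 in S phase (all genes 23.1%), 4 in the difference (27.9%) and 2 in each residual (10.2% and 15.1% in the asynchronous and S-phase cultures), and the other decay genes counted 2 and 12 in the asynchronous and S-phase cultures, of 50 (all genes 16.4% and 23.1%), with 1 and 6 for the residuals. The ratios of upf1 stayed between -0.021 and 0.29 in asynchronous cells and between 0.0097 and 0.4 in S phase, where its residuals stayed between -0.0014 and 0.14. Its asynchronous value was below the median gene when the GC trend was removed.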
